A study of Mus musculus with 12 samples.

Results

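Fully grown mouse oocytes carrying either of 2 mutant alleles of Marf1 were compared directly with each other by RNA-seq. GTMut oocytes carry a gene trap of Marf1, and D272Mut oocytes carry a mutant of the residue D272 (aspartate by the one-letter code). The residue that replaced it, the trap vector and the insertion site were not stated in what was available here. All mice were C57BL/6 of 3 weeks, given 5 IU of the gonadotropin PMSG to make their follicles grow, and oocytes at the germinal vesicle stage were taken 46 h later. The comparison is between 8 of the 12 libraries of the series, 4 per allele with 80 oocytes each. The other 4, from Marf1 wildtype (WT) oocytes of the same background, age and priming, are given for reference. They also enter the linear model (limma), in which all 12 libraries share an estimate of the spread. Genes were included if they reached 1 FPKM (the authors' fragment count scaled for transcript length and library size) in any of the 8 mutant libraries, which held for 12530 of the 24254 genes in the table. Whether the libraries of an allele came from separate mice is not stated, so the p-values below measure the spread between these libraries, which may be technical.

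MARF1 takes its name from meiosis regulation and mRNA stability, and mouse oocytes need it to resume meiosis and to hold retrotransposon and other transcripts in check. Its NYN domain has a ribonuclease fold, and it also carries RNA recognition motifs and a row of LOTUS domains. Oocytes at the germinal vesicle stage are arrested in prophase and no longer make much new RNA, so they live on transcripts stored during growth. A gene trap captures the transcript of the gene it sits in and usually shortens it, whereas a point mutant can leave the transcript in place. Setting the alleles against each other asks where GTMut and D272Mut oocytes differ. The amount of Marf1 RNA, the residue change and the mouse line go together with the allele and cannot be told apart here. No batch or date is stated.

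Libraries of one allele were closer to each other than to those of the other allele. Across the tested genes Pearson's r of log2(FPKM + 1) was 0.964 to 0.979 within GTMut, 0.963 to 0.983 within D272Mut and 0.937 to 0.961 between the alleles. With WT libraries it was 0.787 to 0.811 for GTMut and 0.828 to 0.84 for D272Mut. The number of genes at 1 FPKM or more was 11350.2 ± 48.1 (SD, n = 4) in GTMut and 11339 ± 45.8 in D272Mut, a difference smaller than the spread (two-sided exact permutation p = 0.6). Relative sequencing depth, estimated from the step between low FPKM values, spanned 0.555 to 1 in GTMut and 0.444 to 0.837 in D272Mut. Absolute depth is unknown, so no counting interval can be given. The 14 oocyte markers summed to 12222 to 12859 FPKM in GTMut and 11817 to 12026 in D272Mut. Blood and immune markers summed to 2.35 to 3.97 against 3.98 to 12.6, which is described further on. In such pools, fewer cells of a type and less RNA per cell cannot be told apart.

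Marf1 RNA was scarce in GTMut and abundant in D272Mut, and no tested gene had a smaller p. Its FPKM was 1.51, 1.3, 1.57 and 1.34 in the GTMut libraries and 53, 54.5, 52 and 53 in the D272Mut libraries, with a WT mean of 25.8. All GTMut libraries lay below WT and all D272Mut libraries above it, and the alleles did not overlap. The mean in D272Mut was 37.1-fold that in GTMut. On the log2(FPKM + 1) scale, which is used for all fold changes below and understates the change of low genes, the difference was 4.48 ± 0.05 (SE of the limma fit). The two-sided exact permutation p was 0.0286, the smallest that 4 libraries against 4 can give, and limma's Benjamini-Hochberg adjusted p was 1.82e-15. The residual 1.43 ± 0.13 FPKM (SD, n = 4) in GTMut is a gene-level value and does not show which part of the transcript it comes from, nor can FPKM show the D272 change. Marf1 (mm10, chr16:14109173-14163351, minus strand) overlaps Nde1 on the opposite strand, and the labels do not say whether strand was used in counting.

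Of the genes near Marf1, Bfar differed most. Bfar encodes an E3 ubiquitin ligase of the endoplasmic reticulum that regulates apoptosis, and it starts 492 kb from the Marf1 start (chr16:13671858-13703612, plus strand). It stood at 4.74, 5.4, 6.37 and 5.35 FPKM in GTMut and 97.8, 95.6, 98.5 and 91.4 in D272Mut, against a WT mean of 18.6. As with Marf1, every GTMut library lay below the WT mean and every D272Mut library above it. The log2 fold change was 3.91 ± 0.07 (adjusted p = 2.71e-13), 17.5-fold in means. Bfar shares its start region and strand with 3110001I22Rik, which stood at 68.5 and 73.7 FPKM and did not pass (adjusted p = 0.0826). Of 14 tested genes starting within 1 Mb of Marf1, 4 were higher in D272Mut and 0 lower, or 28.6% called by limma, where the share over all tested genes was 41%. Within 5 Mb, 82 genes were tested, of which 12 were higher and 19 lower (37.8% called), and Bfar and Prm2, a sperm protamine gene, were the 2 that changed at least 2-fold. Over whole chromosomes the called share ran from 33.7% on chromosome 18 to 45% on chromosome 3.

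**Figure D1:**
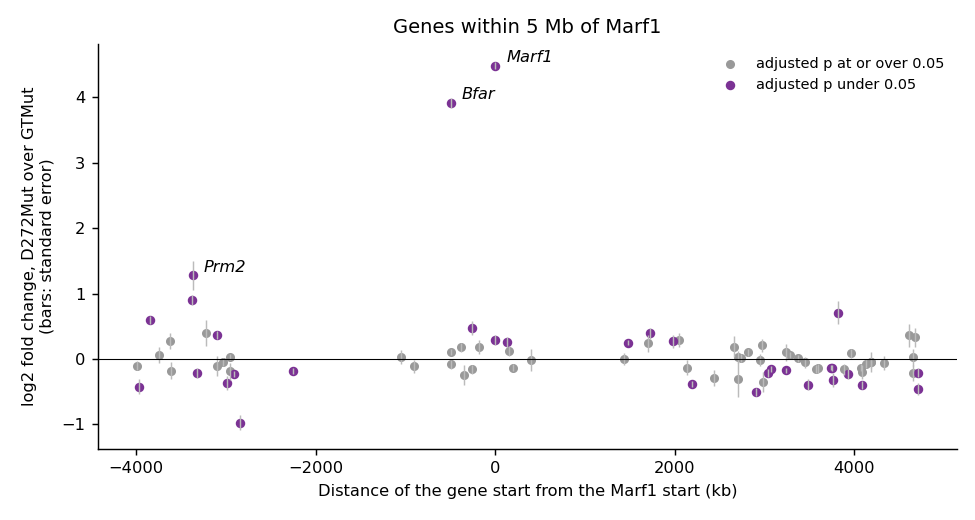
Log2 fold change (D272Mut over GTMut, vertical axis, bars give the standard error) of the tested genes within 5 Mb of Marf1 against the distance of their starts from the Marf1 start in kb; purple points have an adjusted p under 0.05. Marf1 at 4.48 and Bfar at 3.91 stand above the rest of the neighbourhood.

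The sequences upstream of both genes are shown with that of Pnpla3, the named gene with the largest fall, because these 3 genes are among the largest changes in either direction. Each is the 250 bases before the RefSeq start (GRCm38.p6, 5′ to 3′), with matches on either strand to the TATA box (TATAAA), the CCAAT box, the GC box (GGGCGG) and the E-box (CACGTG) in capitals. Overlapping matches were counted separately, which applies to the run at the 3′ end of the Marf1 window. The Marf1 window (chr16:14159275-14159524, minus strand) held 8 GC boxes and 0 of the other motifs, and its GC content was 66.4%. It lies within the GENCODE interval given above, because that interval also takes in transcripts that start upstream of the RefSeq start. The Bfar window (chr16:13671608-13671857, plus strand) held 1 TATA box and 2 GC boxes at a GC content of 46.8%. The Pnpla3 window (chr15:84167566-84167815, plus strand) held 1 CCAAT box and 2 GC boxes. Of 32817 such windows in the RefSeq table, 12.4% hold the TATA box, 33.8% the CCAAT box, 32.7% the GC box and 6.02% the E-box. A match is a description of the letters and no evidence of a bound site.
Marf1: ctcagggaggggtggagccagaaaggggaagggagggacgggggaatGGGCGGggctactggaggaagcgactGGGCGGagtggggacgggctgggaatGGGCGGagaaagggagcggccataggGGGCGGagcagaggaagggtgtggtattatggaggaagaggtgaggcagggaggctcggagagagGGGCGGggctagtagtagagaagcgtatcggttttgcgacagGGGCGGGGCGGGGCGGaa
Bfar: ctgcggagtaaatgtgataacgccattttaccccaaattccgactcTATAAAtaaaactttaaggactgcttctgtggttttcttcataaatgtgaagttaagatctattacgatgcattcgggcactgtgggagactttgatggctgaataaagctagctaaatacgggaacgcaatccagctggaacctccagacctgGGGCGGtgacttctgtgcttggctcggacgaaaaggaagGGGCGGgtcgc
Pnpla3: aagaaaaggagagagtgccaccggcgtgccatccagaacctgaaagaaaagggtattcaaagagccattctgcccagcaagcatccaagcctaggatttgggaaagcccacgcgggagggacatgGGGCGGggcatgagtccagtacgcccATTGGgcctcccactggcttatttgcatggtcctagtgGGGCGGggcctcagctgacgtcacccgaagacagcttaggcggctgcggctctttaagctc

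Differences between the alleles were many and mostly small. At an adjusted p under 0.05, 2498 genes were higher in D272Mut (19.9%) and 2641 lower (21.1%), while 7391 did not pass. Of the 5139 called genes 73.5% changed by less than 1.5-fold, and their median absolute log2 fold change was 0.391. At least 2-fold changes were found for 201 higher and 235 lower genes, 3.48% of those tested, at least 4-fold for 26 and 30, and at least 8-fold for 7 and 6. In 2341 genes every D272Mut library lay above every GTMut library and in 2464 every one lay below, together 38.3% of the genes. Among the genes that did not pass, 6111 had a 95% interval of the difference within 1.5-fold. The called share rose with the level, from 23.5% under a mean of 1 FPKM to 53% at 100 FPKM and above. For scale, the same rule called 77.5% of these genes between GTMut and WT and 75.8% between D272Mut and WT, comparisons that share libraries with this one. At a q-value under 0.05 the authors' deposited table lists 2278 genes higher and 2210 lower in D272Mut among those tested, and 4121 of them were also called here in the same direction, 80.2% of the calls made here and 91.8% of theirs.

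**Figure D2:**
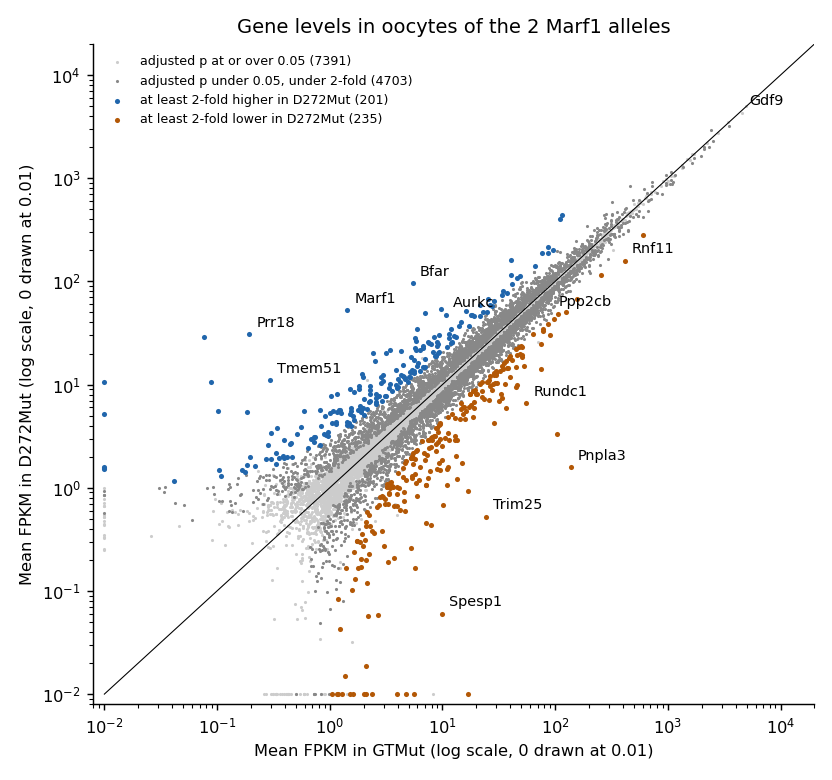
Mean FPKM of each tested gene in D272Mut (vertical axis) against GTMut (horizontal axis), 4 libraries each, on log scales with 0 drawn at 0.01; the line marks equal levels. Blue marks the 201 genes at least 2-fold higher in D272Mut and orange the 235 at least 2-fold lower, on the log2(FPKM + 1) scale, and most called genes (dark grey) lie close to the line.

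Among named genes the rises in D272Mut were led by Prr18, a proline-rich protein gene of chromosome 17. It was near 0 in GTMut, at 0.218, 0.171, 0.20 and 0.185 FPKM, and stood at 24.1, 34.4, 34.8 and 29.1 in D272Mut, so the alleles were far apart in every library (log2 fold change 4.71 ± 0.10, adjusted p = 1.32e-12). Its WT mean was 41.5, on the side of D272Mut. Olfr206, an olfactory receptor gene, was listed at 0 in all 4 GTMut libraries, and D272Mut libraries held 5.09, 4.86, 6.44 and 4.45 FPKM (WT mean 0.833).

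Gpd1l, which encodes a glycerol-3-phosphate dehydrogenase-like protein, rose from 9.72 ± 0.62 to 54.5 ± 0.84 FPKM (5.6-fold in means, WT 78.3), and the lowest D272Mut library stood at 53.7 where the highest GTMut library stood at 10.6. Stt3b, a catalytic subunit of the oligosaccharyltransferase that glycosylates proteins in the endoplasmic reticulum, held 41.8, 41.8, 37.3 and 41.7 FPKM in GTMut and 107, 117, 119.7 and 119.9 in D272Mut (WT 238). For both genes the D272Mut level lay between those of GTMut and WT. Acp1, the low molecular weight protein tyrosine phosphatase, rose from 2.53 ± 0.34 to 16.9 ± 1.6 FPKM and stood near its WT mean of 15.9. Ceacam20, a cell adhesion molecule gene, rose from 3.18 ± 0.61 to 20.2 ± 1.3 FPKM (WT 29). Cntn2, an axonal adhesion protein gene, rose from 0.186 ± 0.065 to 5.39 ± 0.69 FPKM, and Sfta2, a surfactant-associated gene, from 0.102 ± 0.20 to 5.53 ± 2.6 FPKM. Iqcf5, an IQ motif gene, rose from 3.45 ± 2.1 to 21.5 ± 4.1 FPKM (adjusted p = 8.21e-05).

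Another set rose past its WT level. Tmem51, a transmembrane protein gene, went from 0.295 ± 0.15 to 11.1 ± 1.2 FPKM with a WT mean of 3.41, and Zfp111, a zinc finger gene, from 5.9 ± 1.2 to 34.8 ± 1.4 FPKM with a WT mean of 9.69. Cyp39a1, an oxysterol hydroxylase of bile acid synthesis, rose from 1.92 ± 0.43 to 12.8 ± 0.85 FPKM (WT 3.7), and Pnmal1 from 5.69 ± 0.72 to 28.1 ± 1.6 FPKM (WT 12.1). Lrrfip1 rose from 86.7 ± 4.7 to 217 ± 6.8 FPKM (WT 154). The log2 fold changes of these 5 genes were 3.22, 2.39, 2.25, 2.12 and 1.32, and none of them had overlapping libraries. Among unnamed gene models, chosen after their values were seen, 5730507C01Rik rose from 0.0762 ± 0.052 to 29.2 ± 0.78 FPKM and A930015D03Rik fell from 105 ± 2.7 to 3.3 ± 1.2 FPKM.

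Pnpla3 showed the largest fall of all named genes. PNPLA3 is a patatin-like protein that acts on triglycerides at lipid droplets. Its FPKM was 139, 135, 146 and 129 in GTMut and 2.1, 1.76, 1.33 and 1.17 in D272Mut, while WT libraries averaged 134. GTMut thus sat near the WT level, with a log2 difference of 0.04 ± 0.09 from it (adjusted p = 0.714), and D272Mut lay far below both. The fall from GTMut to D272Mut was -5.75 ± 0.09 on the log2 scale (adjusted p = 7.92e-14), or 86.3-fold in means. Pnpla3 lies at chr15:84167837-84187236, plus strand.

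Trim25, the ubiquitin ligase that activates the RNA sensor RIG-I, showed the opposite relation to WT. It stood at 22.3, 26.3, 24.7 and 24.2 FPKM in GTMut and 0.99, 0.178, 0.449 and 0.485 in D272Mut, with a WT mean of 0.149 (log2 fold change -4.08 ± 0.14, adjusted p = 1.74e-10). Here D272Mut lay near the low WT level and GTMut lay far above both. The same ordering held for Spesp1, an equatorial segment gene of sperm, at 9.09, 11.3, 10.0 and 8.99 FPKM in GTMut and at most 0.0959 in D272Mut (WT 0.0901). It also held for Lancl3, which fell from 4.72 ± 0.62 to 0.00903 ± 0.018 FPKM and was listed at 0 in 3 of 4 D272Mut libraries and in WT, and for Naip6, a cytosolic receptor gene of the inflammasome, which fell from 1.37 ± 0.18 to 0.0148 ± 0.019 FPKM (WT 0.0106). Gsto2, a glutathione transferase of the omega class, was listed at 0 in all D272Mut libraries, against 2.18, 1.88, 3.31 and 2.16 in GTMut and a WT mean of 9.76. Spesp1, Lancl3, Naip6 and Gsto2 were the 4 named genes at or under 0.1 FPKM in every D272Mut library and at 1 or more in every GTMut library.

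The other large falls covered signalling, matrix and nuclear genes. Rundc1 fell from 55.5 ± 2.4 to 6.66 ± 1.3 FPKM (WT 0.316), Draxin, an axon guidance protein gene, from 16.7 ± 2.9 to 0.93 ± 0.21 FPKM (WT 5.1), and Prr15l from 14.9 ± 1.4 to 1.73 ± 0.49 FPKM (WT 9.25). Pxdn, the peroxidasin that cross-links collagen IV, fell from 36.8 ± 1.3 to 5.92 ± 0.58 FPKM (WT 11.6), and Tagap, a GTPase-activating protein gene, from 28.9 ± 1.5 to 4.29 ± 0.35 FPKM (WT 2.06). Esrra, an orphan nuclear receptor of energy metabolism, fell from 13.1 ± 1.6 to 2.02 ± 0.34 FPKM (WT 0.112), and Apof, an apolipoprotein gene, from 5.23 ± 1.0 to 0.258 ± 0.18 FPKM. Stk32a, a serine/threonine kinase gene, fell from 5.7 ± 0.63 to 0.165 ± 0.13 FPKM, and Ralgds, an exchange factor for Ral GTPases, from 53.1 ± 0.96 to 15.1 ± 0.56 FPKM (WT 18.6). The noncoding Gt(ROSA)26Sor fell from 11.2 ± 1.5 to 1.6 ± 0.52 FPKM (WT 0.32). Libraries of the alleles did not overlap for any of these 10 genes, and their log2 fold changes ran from -3.19 (Draxin) to -1.75 (Ralgds). Draxin, Rundc1, Prr15l, Gt(ROSA)26Sor and Esrra overlap another tested gene on the opposite strand, so part of their reads may belong to it.

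**Figure D3:**
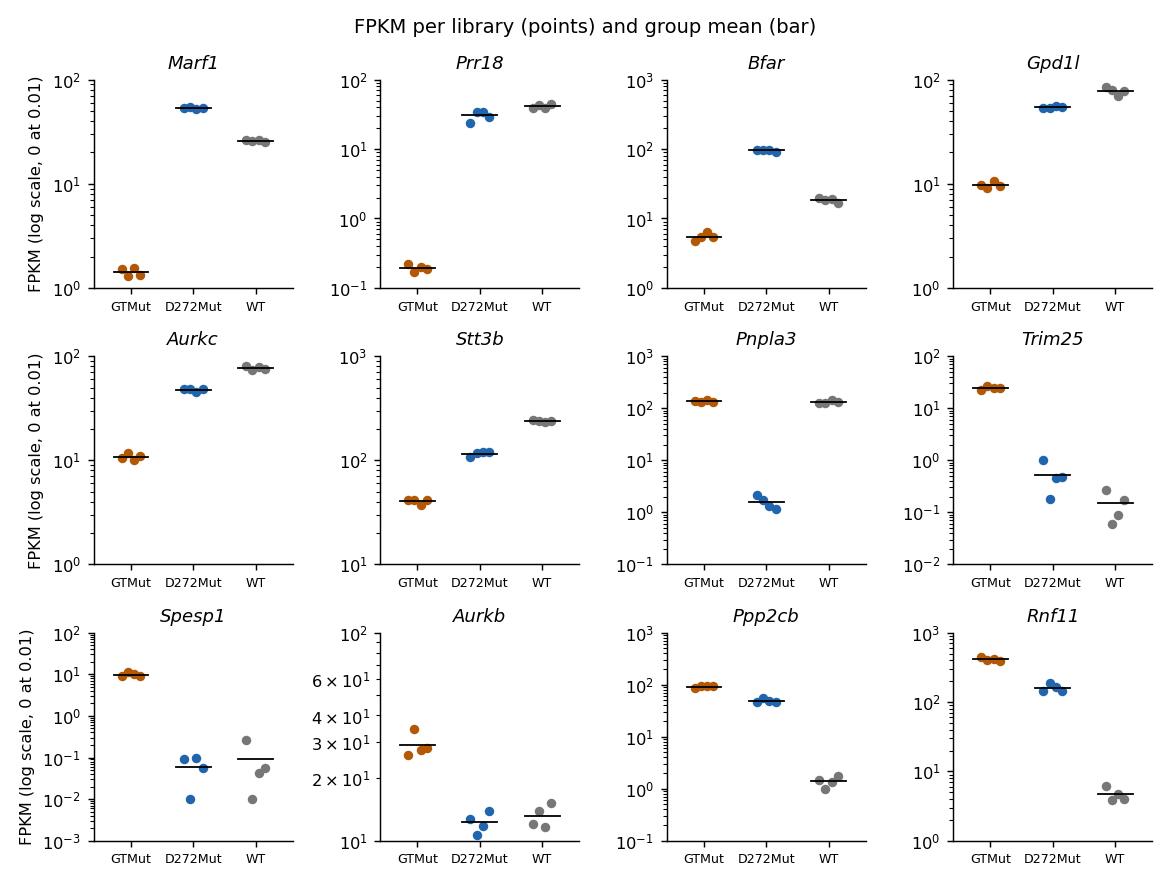
FPKM of 12 genes in each library (points, log scale, 0 drawn at 0.01) and their group means (bars) in GTMut, D272Mut and WT oocytes, 4 libraries each. Marf1 and Bfar lie on opposite sides of WT in the alleles, Pnpla3 points of D272Mut lie far below those of the other groups, and Trim25 and Spesp1 points of GTMut far above.

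In absolute FPKM the largest gains included several oocyte genes. Bcl2l10, an oocyte member of the Bcl2 family, rose from 2427 ± 69 to 2956 ± 168 FPKM, Obox2, an oocyte homeobox gene, from 464 ± 16 to 836 ± 26 FPKM, and Rfpl4, an oocyte gene whose protein binds cyclin B1, from 322 ± 13 to 592 ± 62 FPKM (WT means 3631, 1503 and 1698). Obox1 rose from 489 ± 25 to 618 ± 12 FPKM and Obox5 from 611 ± 15 to 779 ± 26 FPKM, but 34.1% of the 150-base windows of Obox1 transcripts also occur in Obox2, so reads of the pair could be split. Speer5-ps1, a pseudogene, rose from 115 ± 14 to 444 ± 23 FPKM, and Fbxw28, an oocyte F-box gene, from 271 ± 13 to 439.7 ± 7.6 FPKM. The largest losses in FPKM were led by Zar1, a maternal effect gene (from 1949.9 ± 85 to 1629 ± 40.2 FPKM), Bmp15, an oocyte growth factor (from 2315 ± 52 to 2006 ± 127 FPKM), and Rnf11, a RING finger gene (from 414 ± 21 to 159 ± 19.8 FPKM). Rnf11 stood apart among them, because its fall was 2.6-fold in means and its WT mean only 4.7. D10Wsu102e (from 1631 ± 42 to 1391 ± 39 FPKM), Slc45a3 (from 1717 ± 36 to 1560.3 ± 78 FPKM) and Spata2 (from 596 ± 18 to 424 ± 47 FPKM) also fell. With quantile normalization the calls of Bcl2l10, Zar1, Bmp15, Slc45a3, Zfp57 and Spin1 were lost.

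The most abundant genes that did not pass were Zbed3, Ubb, Gdf9, Vrtn and Khdc3. Gdf9, an oocyte growth factor, held 4544 ± 162 FPKM in GTMut and 4319 ± 46 in D272Mut (95% interval of the log2 difference -0.14 to -0.01). Every D272Mut library of Gdf9 lay below every GTMut library, although limma's adjusted p was 0.0676. Khdc3, which encodes a subcortical maternal complex protein, held 1711 ± 66 FPKM in GTMut and 1701 ± 87 in D272Mut (-0.10 to 0.08). Vrtn held 2233 ± 47 FPKM in GTMut and 2194 ± 113 in D272Mut (-0.13 to 0.07), far above its WT mean of 232.

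Gene lists are described next by the number of tested members that passed in each direction, to be read against 19.9% higher and 21.1% lower over all tested genes, where the median log2 fold change was -0.015. Up to 4 called members per list, those with the smallest p, are named. Members sharing libraries and pathways are not replicates of the condition, and no test was made of a list as a whole. The plot of called members per list shows them all. Of the genes named in this way or above, Sfta2, Spata2, Uchl1, Strn4, Pkmyt1, Gpr3, Syce2, Edc3, Skiv2l, Trp53bp1, Junb and Psmd9 overlap another tested gene on the opposite strand, and A930015D03Rik overlaps a pair of them. Reads of Fbxw28, C87414, Ccnb1, Gm5662, Khdc3, Ubb, Wdr77, Zfp58, Tagap and Slc45a3 could be shared with similar genes, since between 8.2% and 42.7% of their 150-base windows occur elsewhere.

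**Figure D4:**
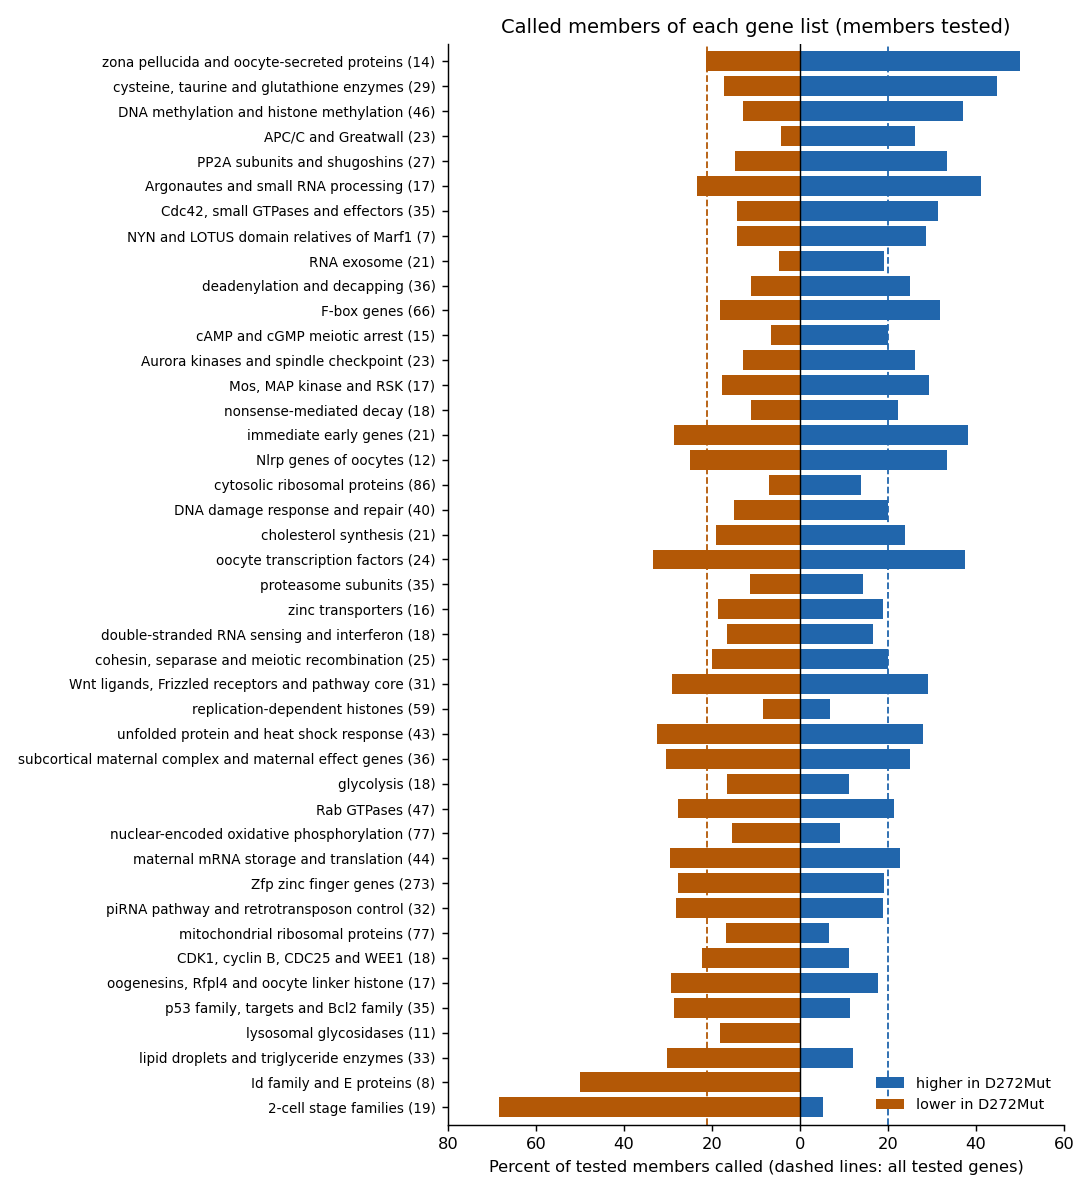
Percent of the tested members of each gene list called higher (blue, right) or lower (orange, left) in D272Mut; numbers tested are in brackets and dashed lines give the shares over all 12530 tested genes. The 2-cell stage families (13 of 19 lower) and the Id genes with related factors (4 of 8 lower) lie at the bottom, and zona and secreted proteins (7 of 14 higher) at the top. Several members of the 2-cell stage families passed the FPKM minimum only through GTMut libraries.

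Among regulators of meiosis, the aurora kinases moved in different directions. Aurkc, the aurora kinase of germ cells, stood at 10.6, 11.6, 10.0 and 10.9 FPKM in GTMut and 48.7, 48.2, 45.4 and 48.5 in D272Mut, a log2 fold change of 2.05 ± 0.05 (adjusted p = 4.56e-12), with a WT mean of 76.9. Aurkb, the somatic chromosomal passenger kinase, went the other way, from 25.8, 34.5, 27.3 and 28 to 12.8, 10.6, 11.8 and 13.9 (-1.17 ± 0.10, adjusted p = 1.49e-06, WT 13.2). For both kinases D272Mut lay nearer to WT than GTMut did, and neither pair of groups overlapped. Of the 150-base windows of Aurkc transcripts, 29.6% also occur in other genes. Aurka, named with the next 3 genes to complete the family after its values were seen, rose slightly from 111 ± 3.8 to 127 ± 9.3 FPKM. The passenger partners did not pass, with Birc5 at 450.2 ± 13 and 468 ± 19 FPKM in GTMut and D272Mut, Incenp at 37 ± 2.9 and 39.5 ± 2.6 FPKM in GTMut and D272Mut and Cdca8 at 58.3 ± 2.2 and 58.8 ± 3.9 FPKM in GTMut and D272Mut.

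In the list of aurora kinases and spindle checkpoint genes as a whole, 6 of 23 tested members were higher and 3 lower. Ttk, the checkpoint kinase MPS1, rose from 25.7 ± 2.1 to 35.8 ± 2.4 FPKM, and Bub1b, which encodes BUBR1, from 147 ± 4.2 to 174 ± 7.8 FPKM. Of 23 genes of the anaphase-promoting complex and the Greatwall pathway, 6 were higher and 1 lower, although the list's median of -0.09 was below 0. Cdc27, a core subunit of the complex, rose from 18.6 ± 0.52 to 35.5 ± 1.6 FPKM (log2 fold change 0.90 ± 0.05), Anapc7, another subunit, from 15.1 ± 0.64 to 20.1 ± 0.69 FPKM, Fbxo43, whose product EMI2 inhibits the complex, from 29.5 ± 1.0 to 36.8 ± 1.9 FPKM, and Mastl, the Greatwall kinase, from 29.3 ± 1.2 to 33.6 ± 1.2 FPKM. Among 18 genes around CDK1, 2 were higher and 4 lower. Ccnb1, the cyclin partner of CDK1, rose from 237 ± 9.5 to 326 ± 19 FPKM, whereas Pkmyt1, an inhibitory kinase of CDK1, fell from 45.9 ± 1.8 to 27.8 ± 0.79 FPKM, Cdc25a, an activating phosphatase, from 90.5 ± 4.3 to 72.1 ± 5.0 FPKM and Cks1b, a CDK subunit, from 159 ± 2.9 to 132 ± 2.7 FPKM.

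The list of PP2A subunits, shugoshins and related genes had 9 of 27 tested members higher and 4 lower. These counts include genes that are not subunits, Sgol1 and Ppme1 among the higher and Tiprl among the lower. PP2A is the phosphatase that opposes CDK1 and is held at centromeres by shugoshin. Ppp2cb, a catalytic subunit, stood at 87.3, 95.5, 92.8 and 93.4 FPKM in GTMut and 45.6, 54.7, 48.7 and 46.8 in D272Mut. The alleles did not overlap, and both lay far above the WT mean of 1.39. The log2 fold change was -0.90 ± 0.09 (limma adjusted p = 3.16e-06, two-sided exact permutation p = 0.0286). The locus given for Ppp2cb in the table also spans the neighbouring gene Ubxn8. Strn, a striatin-type regulatory subunit, rose from 55.8 ± 1.5 to 85.7 ± 4.0 FPKM, whereas Strn4, of the same family, fell from 34.2 ± 0.42 to 24.9 ± 0.84 FPKM. Ppp2r5a, a B56 regulatory subunit, rose from 19.6 ± 1.2 to 29.5 ± 1.4 FPKM.

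Of 15 tested genes of cyclic nucleotide signalling, which keeps the oocyte arrested, 3 were higher and 1 lower, a smaller share (26.7%) than over all genes. Gpr3, the receptor that maintains cAMP in the oocyte, rose from 63 ± 4.0 to 98.6 ± 11 FPKM (0.63 ± 0.07, WT 157), and Prkaca, a catalytic subunit of protein kinase A, from 21.2 ± 1.0 to 24.7 ± 1.1 FPKM. In the Mos and MAP kinase list 5 of 17 were higher and 3 lower. Spry4, an inhibitor of receptor tyrosine kinase signalling, rose from 45.6 ± 3.8 to 107 ± 4.9 FPKM (WT 298), Mos, the oocyte kinase upstream of MAP kinase, from 721 ± 27 to 923 ± 39 FPKM, and Mapk3, which encodes ERK1, from 38.6 ± 3.1 to 59.1 ± 2.0 FPKM. Cohesin, separase and recombination genes split evenly, 5 higher and 5 lower of 25, with Pttg1, the securin gene, falling from 238 ± 1.7 to 178 ± 23 FPKM, and the synapsis genes Syce2 and Msh4 rising from 369.8 ± 15 to 424 ± 17 FPKM and from 1.59 ± 0.37 to 2.93 ± 0.45 FPKM.

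Genes of the zona pellucida and oocyte-secreted proteins were called more often than the tested genes at large, 7 of 14 higher and 3 lower (71.4%). Abundant genes were called more often in general, in 51.4% of cases from 20 to 100 FPKM and 53% at 100 FPKM and above. Of this list 13 members had a mean FPKM of at least 5. Fgf8, a growth factor that oocytes send to cumulus cells, rose from 41 ± 0.94 to 61.2 ± 5.6 FPKM, Oosp1, an oocyte-secreted protein, from 279 ± 11 to 357 ± 21 FPKM, Oosp3 from 67.6 ± 8.1 to 106 ± 21 FPKM, and Astl, the ovastacin protease that cleaves the zona after fertilization, from 160.3 ± 11 to 194 ± 1.8 FPKM. All 4 had their highest mean in WT, with Fgf8 at 61.9 close to its D272Mut mean. Of 36 maternal effect genes 9 were higher and 11 lower. Cdh1, the E-cadherin gene, rose from 32.5 ± 0.72 to 49.4 ± 2.1 FPKM, and Nlrp14 and Uchl1 fell from 1098 ± 49.7 to 883 ± 34 FPKM and from 1117 ± 44 to 916 ± 25 FPKM. Nlrp4e and Nlrp9c, oocyte genes of the NLR family, rose from 20.6 ± 0.96 to 36.4 ± 2.1 FPKM and from 27 ± 1.0 to 37.3 ± 0.93 FPKM, and Nlrp5, the MATER gene of the subcortical complex, fell from 387 ± 9.6 to 337 ± 4.8 FPKM. Among the oogenesins and related genes, 3 of 17 were higher and 5 lower, led by rises of C86187 (from 194 ± 13 to 347 ± 32 FPKM, WT 1152) and C87414 (from 276 ± 4.0 to 408 ± 18 FPKM) and a fall of Pramel1 (from 17.7 ± 1.9 to 8.07 ± 0.97 FPKM, WT 0.291).

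Oocyte transcription factors were called often but in both directions, 9 higher and 8 lower of 24 (70.8%). That share, too, is to be read beside the rise of the called share with level. Sebox, an oocyte homeobox gene, rose from 56.4 ± 3.2 to 82 ± 1.5 FPKM (WT 125), and Nobox, a regulator of oocyte genes, from 289 ± 7.7 to 366 ± 8.3 FPKM (WT 193). Tbpl2, the TBP paralog that drives transcription in growing oocytes, fell from 106 ± 6.7 to 47.9 ± 1.4 FPKM (-1.12 ± 0.08), while WT was lower still at 5.19.

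Families that are switched on at the 2-cell stage of the embryo changed almost always in one direction where they were called. Of 19 tested members 13 were lower in D272Mut and 1 higher, with a median log2 fold change of -1.13. The 2 remaining members, Pramel6 and Pramel7, stayed below the FPKM minimum. Zscan4a, Zscan4b, Usp17la, Tdpoz1, Tdpoz2, Tdpoz4 and Zfp352 reached 1 FPKM only in GTMut libraries. They passed the filter through GTMut alone, so the counts and the median lean to the lower side by selection. At a mean FPKM of at least 5, 8 members were tested, 5 lower and 1 higher, with a median of -0.98. That mean is taken over both alleles, so this filter leans the same way. The lower members Zscan4c, Zscan4f, Usp17lb and Gm5662 had D272Mut means of 2.92, 2.29, 3.1 and 2.91 FPKM and passed it through their GTMut values. Summed over its 5 members in the table, the Zscan4 family, zinc finger genes known from 2-cell embryos and embryonic stem cells, held 34.2, 34.7, 37.1 and 17 FPKM in GTMut, 9.47, 11.7, 10.3 and 7.44 in D272Mut and 5.6 on average in WT. GTMut replicate 4 stood between the other GTMut libraries and the D272Mut libraries. That library held the lowest GTMut sum, so leaving it out could only deepen the fall of the sum. The counts without it, 15 lower and 1 higher with a median of -1.33, are therefore no added support. GTMut replicate 1 in turn held the highest Tdpoz sum (27 FPKM) and the highest Zfp352 value (5 FPKM). Counts without replicate 1 are not given here.

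Zscan4f stood at 9.16, 10.1, 10.8 and 5.03 FPKM in GTMut and 2.2, 2.78, 2.17 and 2.0 in D272Mut (-1.53 ± 0.18, adjusted p = 1.72e-05), and Zscan4b fell from 3.72 ± 1.4 to 0.207 ± 0.17 FPKM. Zscan4a fell from 4.7 ± 2.3 to 0.591 ± 0.15 FPKM and Zscan4c from 7.6 ± 1.6 to 2.92 ± 0.64 FPKM, and Zscan4d held 5.95 ± 2.0 and 3.71 ± 1.0 FPKM in GTMut and D272Mut and did not pass (adjusted p = 0.059). The Usp17l family, deubiquitinating enzymes, summed to 31.3, 28.8, 32.9 and 13.5 FPKM in GTMut and 15.7, 4.4, 14.1 and 15.3 in D272Mut, so these ranges overlapped, and 3 of its 5 members were called lower. Among the Tdpoz genes, of the speckle-type POZ family, 3 of 4 were called lower, but their GTMut libraries ranged from 0.44 to 27 FPKM in sum. Zfp352, a zinc finger gene of 2-cell embryos, fell from 2.1 ± 2.1 to 0.0188 ± 0.038 FPKM, Gm5662 from 13 ± 6.5 to 2.91 ± 0.45 FPKM, and Eif1a, a translation initiation factor gene, from 86.9 ± 4.1 to 48.7 ± 6.4 FPKM. In the opposite direction, Tcstv1 rose from 22.8 ± 2.7 to 50.4 ± 2.9 FPKM, near its WT mean of 55.4, and Tcstv3 held 32.5 ± 9.2 and 29.3 ± 3.9 FPKM in GTMut and D272Mut and did not pass.

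**Figure D5:**
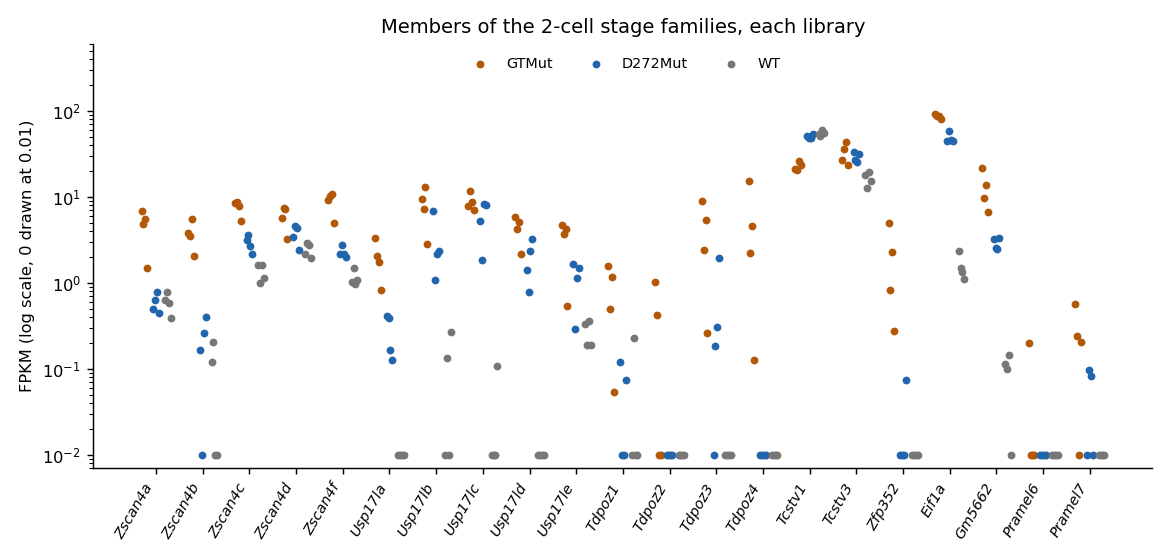
FPKM of the 21 members of the 2-cell stage families in each GTMut, D272Mut and WT library (points, log scale, 0 drawn at 0.01). All GTMut points lie above all D272Mut points for 9 members, all D272Mut points lie above all GTMut points for Tcstv1, the points of other members overlap, and WT points are lowest or at 0 for most.

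Reads can be split between close copies within these families, so values of the members that share much sequence are uncertain. Of the 150-base windows of annotated Zscan4f transcripts 77.4% also occur in other genes, while the share was 66.4% for Zscan4b, 61% for Zscan4c, 25.1% for Zscan4a and 13% for Zscan4d. It was between 0.754% and 36.1% for the Usp17l genes, between 6.54% and 33.4% for the Tdpoz genes, and 0 for Tcstv1, Tcstv3, Zfp352 and Eif1a. The upstream regions of the 3 Zscan4 genes with the highest shares are also alike, which the following windows show (250 bases before the RefSeq start, GRCm38.p6, TATA and CCAAT boxes in capitals). The Zscan4b and Zscan4f windows align over 250 bases and differ at 13, and those of Zscan4c and Zscan4f align, after a shift, over 227 and differ at 1. Each holds 1 TATA box and, just after it, 1 CCAAT box. They lie at chr7:10905051-10905300, minus strand, at chr7:11005495-11005744, plus strand and at chr7:11397665-11397914, plus strand.
Zscan4b: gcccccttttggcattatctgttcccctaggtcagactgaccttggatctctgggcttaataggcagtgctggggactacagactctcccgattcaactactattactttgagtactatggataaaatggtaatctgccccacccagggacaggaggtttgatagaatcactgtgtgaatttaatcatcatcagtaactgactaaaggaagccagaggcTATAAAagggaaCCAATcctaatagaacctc
Zscan4c: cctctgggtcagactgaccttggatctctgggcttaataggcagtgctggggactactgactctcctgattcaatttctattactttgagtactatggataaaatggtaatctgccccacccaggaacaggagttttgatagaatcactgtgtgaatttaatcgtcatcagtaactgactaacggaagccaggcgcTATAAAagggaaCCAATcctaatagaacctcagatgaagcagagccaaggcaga
Zscan4f: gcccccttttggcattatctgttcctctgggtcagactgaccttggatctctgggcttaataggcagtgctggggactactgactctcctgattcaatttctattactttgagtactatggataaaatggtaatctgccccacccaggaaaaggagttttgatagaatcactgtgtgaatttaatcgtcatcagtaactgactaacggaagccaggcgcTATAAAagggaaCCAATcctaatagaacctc

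In the list of Id genes, whose products block basic helix-loop-helix transcription factors, and of related factors, 0 of 8 tested members were higher and 4 lower. The lower members were Id1, Id2, Id4 and Hey1, a related repressor, which fell from 11.9 ± 1.8 to 7.73 ± 1.3 FPKM (WT 11.3). Id2 stood at 90.2, 97.5, 107 and 92.4 FPKM in GTMut and 35.1, 53.3, 41 and 45.2 in D272Mut (-1.14 ± 0.11, adjusted p = 4.35e-06), Id1 fell from 24.3 ± 2.7 to 15.4 ± 3.9 FPKM, and Id4 from 3.65 ± 0.63 to 2.5 ± 0.56 FPKM. Id3, given here although it did not pass, was the most abundant of them at 659.5 ± 35 FPKM in GTMut and 684 ± 39 in D272Mut, with an interval of the log2 difference of -0.15 to 0.26. The WT means of Id1, Id2, Id3 and Id4 were 2.89, 1.52, 6.88 and 0.493 FPKM, below both alleles. In the Wnt list 9 genes were higher and 9 lower of 31. Fzd5, a Wnt receptor, fell from 255 ± 5.3 to 116 ± 12 FPKM (WT 0.922), while Fzd7, another receptor, rose from 31.5 ± 1.8 to 47.5 ± 3.9 FPKM (WT 14.9), Lef1, a nuclear effector of the pathway, from 2.57 ± 0.19 to 6.77 ± 0.76 FPKM, and Apc, a scaffold of the β-catenin destruction complex, from 11.4 ± 0.52 to 17.7 ± 1.1 FPKM.

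Genes of RNA binding and decay were examined because MARF1 acts on RNA. Of 7 tested genes that share the NYN or LOTUS domain with Marf1, 2 were higher and 1 lower. N4bp1, which has a NYN domain, rose from 107 ± 2.6 to 155 ± 8.3 FPKM, Zc3h12c, of the Regnase family, from 2.28 ± 0.33 to 5.58 ± 1.0 FPKM, and Tdrd7, a LOTUS and tudor domain gene of germ granules, fell from 5.58 ± 0.62 to 4.02 ± 0.57 FPKM. Maternal mRNA storage and translation genes were 10 higher and 13 lower of 44. Larp1, a translation regulator that binds 5′ terminal oligopyrimidine mRNAs, rose from 24.6 ± 1.4 to 42.7 ± 3.0 FPKM, well above its WT mean of 3.01, and Papolg, a poly(A) polymerase, from 11.1 ± 0.91 to 18.9 ± 1.1 FPKM (WT 31.2). Zfp36, which directs mRNAs with AU-rich elements to decay, fell from 18.9 ± 2.1 to 6.82 ± 1.5 FPKM (-1.36 ± 0.13), close to its WT mean of 6.8. Lsm14a, a component of storage granules, rose from 138 ± 2.7 to 167 ± 7.1 FPKM.

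In deadenylation and decapping, 9 of 36 genes were higher and 4 lower. Btg4, the adaptor of maternal mRNA deadenylation, rose from 322 ± 14 to 455 ± 8.8 FPKM (WT 755), Cnot8, a deadenylase, from 56.3 ± 1.3 to 75.5 ± 7.0 FPKM, and Edc3, an enhancer of decapping, fell from 15.3 ± 1.4 to 7.82 ± 1.2 FPKM (WT 0.58). Of the nonsense-mediated decay genes 4 of 18 were higher and 2 lower, among them Upf2, a core factor, which rose from 7.77 ± 0.61 to 11.7 ± 0.45 FPKM, and Rnps1, an exon junction component, from 22.8 ± 1.4 to 40.3 ± 4.2 FPKM. The RNA exosome list had a low called share (23.8%, 4 higher and 1 lower of 21). Its called members included Skiv2l and Ttc37, of the superkiller complex, which rose from 3.52 ± 0.35 to 4.58 ± 0.34 FPKM and from 0.522 ± 0.17 to 1.05 ± 0.20 FPKM. Exosc6 was called lower, but all of its 150-base windows also occur in Aars.

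Argonaute and small RNA processing genes were called in 64.7% of 17 cases, 7 higher and 4 lower. Paralogs differed in direction. Tnrc6a, a GW182 protein gene of the silencing complex, fell from 28.3 ± 1.9 to 19.22 ± 0.83 FPKM while Tnrc6c rose from 16.7 ± 0.91 to 20.9 ± 0.71 FPKM, and Lin28b, which blocks let-7 maturation, fell from 24.3 ± 1.4 to 15.4 ± 0.96 FPKM while Lin28a rose from 23.4 ± 0.62 to 33.3 ± 2.8 FPKM. In the piRNA and retrotransposon list 6 were higher and 9 lower of 32. Mov10, a helicase that restrains retrotransposons, rose from 2.93 ± 0.43 to 5.89 ± 0.66 FPKM, Exd1, a piRNA biogenesis factor, fell from 16.5 ± 1.1 to 11.6 ± 0.77 FPKM, and Wdr77, a partner of PRMT5, from 27.3 ± 3.0 to 8.8 ± 1.3 FPKM (WT 0.143, and it overlaps Atp5f1 on the opposite strand). Interferon and double-stranded RNA sensing genes, to which Trim25 is related by function, were 3 higher and 3 lower of 18. Ifitm3, an antiviral membrane protein, rose from 50.7 ± 5.6 to 99.4 ± 8.6 FPKM (WT 55.6), Oas1e from 725 ± 19.6 to 849 ± 23 FPKM, and Mavs, the adaptor below RIG-I, fell from 42.1 ± 2.1 to 33.8 ± 3.0 FPKM.

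Chromatin genes leaned to the higher side. Of 46 tested genes of DNA and histone methylation 17 were higher in D272Mut and 6 lower. The 4 called members with the smallest p were Polycomb genes. Suz12 and Eed, core subunits of Polycomb repressive complex 2, rose from 61.9 ± 2.3 to 84 ± 3.4 FPKM and from 33.5 ± 1.6 to 43.9 ± 1.6 FPKM, its accessory subunit Jarid2 from 40.6 ± 1.9 to 58.8 ± 2.0 FPKM, and Bmi1, of Polycomb complex 1, from 99.4 ± 3.9 to 144 ± 7.2 FPKM. Ezh2, the methyltransferase of complex 2, added after its values were seen, rose from 24.4 ± 1.3 to 30.1 ± 1.6 FPKM (adjusted p = 0.000315). The rises of these 5 genes were between 0.29 and 0.53 on the log2 scale, and all but Jarid2, at 36.8, had a higher WT mean than either allele. Zfp57, which protects imprints, held 2109.6 ± 49.6 FPKM in GTMut and 1923 ± 59 in D272Mut, and Dppa3, which protects maternal methylation, 910.3 ± 31 FPKM in GTMut and 943 ± 126 in D272Mut, of which only the first passed (adjusted p = 0.00398 and 0.682).

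DNA damage response genes were 8 higher and 6 lower of 40. Trp53bp1, a repair adaptor of double-strand breaks, rose from 8.21 ± 0.29 to 12.2 ± 0.29 FPKM and Hus1, of the 9-1-1 clamp, from 24.3 ± 1.8 to 34.6 ± 1.7 FPKM, while Parp1, the poly(ADP-ribose) polymerase, fell from 9.05 ± 0.56 to 5.86 ± 0.36 FPKM and H2afx, the damage-marked histone, from 171 ± 6.0 to 136 ± 4.2 FPKM. In the p53 and Bcl2 list 10 of 35 were lower and 4 higher. The lower members included the death-promoting Bik (from 13.4 ± 1.8 to 2.93 ± 0.99 FPKM, WT 24) and Bmf (from 9.08 ± 0.60 to 5.35 ± 0.52 FPKM, WT 0.0727), but also the survival gene Mcl1 (from 446 ± 17 to 314 ± 17 FPKM, WT 12.6). Immediate early genes were called in both directions, 8 higher and 6 lower of 21. Junb, an AP-1 component, stood at 3.04, 2.18, 2.0 and 1.95 FPKM in GTMut and 9.53, 9.09, 9.48 and 10.6 in D272Mut, and Ier2 rose from 76.6 ± 7.9 to 189 ± 9.5 FPKM (WT 3.06). Egr1, a growth factor-induced transcription factor, fell from 63.4 ± 5.0 to 30.9 ± 4.5 FPKM instead. Unfolded protein and heat shock genes were 12 higher and 14 lower of 43. Dnajb9, a chaperone of the endoplasmic reticulum, fell from 199.9 ± 4.1 to 127 ± 4.1 FPKM, Hsp90ab1, a cytosolic chaperone, from 186 ± 2.9 to 137 ± 3.8 FPKM, and Dnajc3, an inhibitor of the kinase PERK, rose from 25.1 ± 1.4 to 34.7 ± 1.8 FPKM.

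Enzymes of cysteine, taurine and glutathione leaned to the higher side, 13 of 29 tested members higher and 5 lower, with a median log2 fold change of 0.24. Cdo1, the cysteine dioxygenase of taurine synthesis, held 7.41, 4.88, 5.72 and 9.02 FPKM in GTMut and 19.09, 27.4, 23.3 and 20.7 in D272Mut (1.62 ± 0.14, adjusted p = 1.4e-06), both far below the WT mean of 148. Gsta4, a glutathione transferase for lipid peroxidation products, rose from 2.84 ± 0.43 to 11.7 ± 1.9 FPKM (WT 28.4). Gclc, the catalytic subunit of the first enzyme of glutathione synthesis, fell from 28.4 ± 1.9 to 12.9 ± 0.84 FPKM (WT 5.59). All 3 genes were nearer to WT in D272Mut than in GTMut, whereas Gsto2, described above, was not.

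Lipid droplet and triglyceride genes were more often lower, 10 of 33 against 4 higher. Beside Pnpla3, Plin2, a coat protein of lipid droplets, stood at 10.4, 9.2, 12.6 and 9.75 FPKM in GTMut and 3.17, 2.68, 3.46 and 2.94 in D272Mut (-1.49 ± 0.11), with a WT mean of 2.92. Fasn, the fatty acid synthase, fell from 4.5 ± 0.17 to 2.57 ± 0.039 FPKM and Dgat2, the last enzyme of triglyceride synthesis, from 37.4 ± 0.61 to 27 ± 2.7 FPKM. Cholesterol synthesis genes were 5 higher and 4 lower of 21. Hmgcs1, the hydroxymethylglutaryl-CoA synthase of the pathway, rose from 91.5 ± 5.5 to 129 ± 4.9 FPKM (log2 fold change 0.49 ± 0.04, WT 114). Of 18 glycolysis genes 2 were higher and 3 lower. Gpi1, the glucose phosphate isomerase, fell from 25.4 ± 0.91 to 15.5 ± 1.8 FPKM, and Slc16a1, a lactate and pyruvate transporter, rose from 63.3 ± 3.0 to 80.7 ± 8.6 FPKM. Lysosomal glycosidases had 2 of 11 lower and 0 higher, with Manba, the β-mannosidase, at 1.51 ± 0.18 and 0.468 ± 0.18 FPKM in GTMut and D272Mut and 30.9 in WT. Zinc transporters were 3 higher and 3 lower of 16, with Slc30a2, a zinc exporter into vesicles, rising from 6.29 ± 0.59 to 21.8 ± 0.54 FPKM (WT 2.65).

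Small GTPase genes moved both ways. Of 47 Rab genes, which direct vesicle traffic, 10 were higher and 13 lower, with Rab3b, a Rab of secretory vesicles, rising from 5.69 ± 0.51 to 22.5 ± 1.8 FPKM (1.81 ± 0.07, WT 28.8) and Rab17 falling from 2.67 ± 0.26 to 0.0585 ± 0.068 FPKM (WT 0.0517). Cdc42, related small GTPases and their effectors were 11 higher and 5 lower of 35. Myo10, an unconventional myosin of filopodia, rose from 1.61 ± 0.21 to 4.96 ± 0.78 FPKM (WT 20.2), Prkci, the atypical protein kinase C of the polarity complex, from 4.05 ± 0.65 to 9.38 ± 0.40 FPKM, and Rhov, a small GTPase gene, fell from 50.2 ± 3.3 to 23.5 ± 1.5 FPKM (WT 0.223). Of 66 F-box genes 21 were higher and 12 lower, and of 273 Zfp zinc finger genes 52 were higher and 76 lower. Zfp58 rose from 18.4 ± 1.6 to 46.9 ± 1.9 FPKM and Zfp69 fell from 9.39 ± 0.73 to 1.75 ± 0.38 FPKM.

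Large housekeeping complexes were called less often than the 41% over all genes. The called share was 20.9% for 86 cytosolic ribosomal protein genes (12 higher, 6 lower), 23.4% for 77 mitochondrial ribosomal protein genes (5 and 13), 24.7% for 77 nuclear-encoded oxidative phosphorylation genes (7 and 12) and 25.7% for 35 proteasome genes (5 and 4). It was 15.3% for 59 replication-dependent histone genes (4 and 5), whose transcripts lack poly(A) tails. Most of these histone genes had means under 5 FPKM, where fewer genes are called. At a mean FPKM of at least 5 only 22 of them were tested, again with 4 higher and 5 lower. Their low share thus depends on the filter. Single members still moved far. Rpl29 fell from 74.6 ± 9.0 to 14.2 ± 1.6 FPKM, Rpl14 from 58.9 ± 1.2 to 33.3 ± 4.1 FPKM, and Rps3a1 rose from 7.54 ± 0.86 to 25.5 ± 3.2 FPKM, although 13.3%, 14.5% and 28.3% of their 150-base windows occur in other genes, which are pseudogenes or paralogs. Mrpl9 rose from 26.4 ± 1.9 to 59 ± 1.6 FPKM but overlaps Oaz3 on the opposite strand, and Psmd9, a proteasome assembly chaperone, rose from 50.6 ± 2.7 to 90.2 ± 7.5 FPKM. Sdha, the flavoprotein of complex II, rose from 9.88 ± 0.80 to 14.5 ± 1.3 FPKM. Hist2h4 fell from 9.84 ± 2.8 to 1.86 ± 2.0 FPKM.

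Markers of other ovarian cells had means of at most 11.7 FPKM (Kitl, the Kit ligand gene, in GTMut) in both alleles, apart from Nr5a2, and some were higher in D272Mut. The 18 granulosa and cumulus markers summed to 148 to 162 FPKM in GTMut and 146 to 148 in D272Mut, most of it Nr5a2, a nuclear receptor that is also in the list of oocyte transcription factors, at 134 ± 5.5 and 118 ± 1.7 FPKM in GTMut and D272Mut (WT 26.5). Of the 8 tested 3 were higher and 2 lower. Gja1, the connexin 43 gene of granulosa cells, stood at 0.779, 0.225, 0.56 and 0.466 in GTMut and 4.03, 2.38, 1.76 and 5.04 in D272Mut, and Amh, the anti-Müllerian hormone gene, at 0.517 ± 0.40 and 1.39 ± 0.45 FPKM in GTMut and D272Mut. The 7 blood and immune markers had 1 of 4 tested members higher. It was Lyz2, the macrophage lysozyme gene, at 0.481, 0.628, 0.73 and 0.541 FPKM in GTMut and 5.14, 1.73, 5.19 and 9.99 in D272Mut. Of 10 theca and stroma markers and 5 endothelial markers, 4 and 3 were tested and 0 were called. Their sums ran from 3.49 to 3.79 FPKM in GTMut and 3.96 to 5.84 in D272Mut for theca and stroma, and from 15.1 to 15.8 and 13.4 to 16.6 for endothelium. Cyp17a1, the defining theca enzyme, was listed at 0 in all 8 libraries. The part of such cells in the differences above was not tested.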

How the data were processed

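Per the labels and the series' design text, messenger RNA libraries of 80 oocytes each were read as 150-base pairs, trimmed, and aligned to mm10 with TopHat2 2.0.13, and the deposited FPKM values were made by the authors with Cufflinks 2.2.1. FPKM divides by length and library size, so the raw depth is lost and a few very abundant RNAs can lower all other values of a library. Small RNA genes made up 66.2% to 88.7% of the summed FPKM in GTMut libraries and 47.8% to 91.2% in D272Mut libraries (two-sided exact permutation p = 0.8). The median ratio of a library's values to the average of the series ran from 0.998 in D272Mut replicate 2 to 1.017 in D272Mut replicate 1. Those libraries held the highest and the lowest small RNA share of the 8. What this spread does to the values of single genes was not tested. The labels name 2 library kits and describe both lysed ovaries and collected oocytes. The authors' table also holds their cuffdiff log2 ratios, p-values and q-values, of which only the q-values and directions of D272Mut against GTMut were used.

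From the FPKM, log2(FPKM + 1) was fitted for the 12530 genes with limma 3.58.1 (R 4.3.3) over all 12 libraries, with an intensity trend, 9 residual degrees of freedom and the contrast D272Mut minus GTMut. P-values were adjusted over all 12530 genes by Benjamini and Hochberg's method at a threshold of 0.05, and all adjusted p-values in the text come from this fit. Exact permutation tests are two-sided. The steps were tested on simulated data. Gene coordinates come from GENCODE vM21, in which 22949 of the 24254 symbols matched and 743 more by synonym.

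Named genes were Marf1 and Ppp2cb, the 15 largest changes in each direction without overlap, the 10 smallest p, the 10 largest FPKM differences in each direction, genes near 0 in a single allele, the 5 most abundant that did not pass, up to 4 called members per list and the 3 most abundant of each marker list, leaving out unnamed models and small RNAs. Not all are printed, and those named outside this rule are marked or complete a family. The members and the 48 lists were chosen with earlier results of these data known.

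The alternatives were the 8 mutant libraries alone, the replicate number as a block, pseudocounts of 0.1 and 5, 3 other filters, median-ratio and quantile scaling, no intensity trend, and leaving out each library. The labels share replicate numbers but do not say what a number marks, and same-numbered libraries did not deviate together in every pair.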

Additional observations from a re-analysis of the deposited data

Results flagged for a closer look

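In a few groups of 4 libraries the gap between 1 library and the nearest other, as a share of the group's range, was above Dixon's 95% critical value. This was so in 22 of 426 groups examined, and chance flags about 1 in 20. GTMut replicate 3 had 15654 genes above 0 FPKM, against 16220 to 16311 in the other GTMut libraries. D272Mut replicate 2 stood apart for Eif1a at 58.3 FPKM (44.8 to 46.4 in the others), Syce2 at 399 FPKM (429 to 434 in the others) and Zc3h12c at 4.03 FPKM (5.98 to 6.31 in the others). D272Mut replicate 3 stood apart for Aurkc at 45.4 FPKM (48.2 to 48.7 in the others), Ceacam20 at 22.2 FPKM (19.4 to 19.7 in the others), Lancl3 at 0.0361 FPKM (the others at 0), Lef1 at 5.64 FPKM (7.02 to 7.24 in the others) and Lsm14a at 177 FPKM (162 to 164 in the others). D272Mut replicate 4 stood apart for Tdpoz3 at 1.95 FPKM (0 to 0.31 in the others) and Zfp352 at 0.0751 FPKM (the others at 0). GTMut replicate 1 stood apart for Aurka at 105 FPKM (112 to 113 in the others), Hus1 at 21.6 FPKM (25 to 25.5 in the others) and Pramel6 at 0.202 FPKM (the others at 0). GTMut replicate 2 stood apart for Cks1b at 154 FPKM (160.0 to 160.2 in the others). GTMut replicate 3 stood apart for Gsta4 at 2.2 FPKM (3.02 to 3.08 in the others), Mavs at 39 FPKM (42.7 to 43.4 in the others), Slc30a2 at 5.4 FPKM (6.52 to 6.69 in the others) and Stt3b at 37.3 FPKM (41.7 to 41.8 in the others). GTMut replicate 4 stood apart for Bmf at 8.18 FPKM (9.31 to 9.45 in the others), Iqcf5 at 0.36 FPKM (4.3 to 4.61 in the others) and Sfta2 at 0.408 FPKM (the others at 0). None of these values makes the libraries of the alleles overlap for a gene that the text describes as separate.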

How the results depend on the processing

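The count of higher genes ran from 1891 with a mean FPKM of at least 5 to 2661 with quantile normalization, and that of lower genes from 2067 to 2791, all within 1.5 times the counts reported. Leaving out 1 library gave 2242 to 2410 higher and 2302 to 2486 lower genes. With a replicate block there were 2385 higher and 2558 lower genes, and the block ended the call of no gene described in the text. In the lists it moved the higher members to 2 for the proteasome, 2 for cyclic nucleotide signalling and 1 for the genes around CDK1, and the lower members to 0 for cyclic nucleotide signalling and to 2 each for the anaphase-promoting complex and the exosome, and moved no other list's count by over 1.5 times. Same-numbered libraries correlated at 0.116, 0.08, -0.084 and 0.148 in their deviations, and GTMut replicate 1 correlated best with D272Mut replicate 3 (0.325). With 4 libraries per allele these values cannot tell whether same-numbered libraries share more than the number. The median log2 fold change over all genes of -0.015 was -0.019 and -0.01 with pseudocounts of 0.1 and 5, -0.007 without a filter, -0.021 with a mean FPKM of at least 5, -0.011 with 1 FPKM in any of 12 libraries, -0.008 with median-ratio rescaling, -0.004 with quantile normalization and -0.017 to -0.014 with 1 library left out. The difference in the number of genes at 1 FPKM or more, -11.25, reversed to 8.25 at a minimum of 5 FPKM, to 3.25 after median-ratio rescaling, and ran from -29.67 to 2.42 with 1 library left out, reversing at 2, 2.33, 1.42 and 2.42; the cause was not tested. The Marf1 log2 fold change was 4.452 to 4.505 with 1 library left out, where the exact permutation p of 0.0571 is the smallest that 3 libraries against 4 allow, so the weaker call comes from the fewer libraries. Spin1 lost its call in 4 of the settings that keep all libraries of both alleles, and Id4 without GTMut replicate 3 or D272Mut replicate 4. No named gene reversed. The authors' files give no depth, so low values carry an unknown counting error.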
